A study of Mus musculus with 18 samples.

Results

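Of the 18193 genes named on the arrays, 10 genes of the naive pluripotent state are described: Nanog, Klf2, Klf4, Klf5, Esrrb, Nr5a2, Nr0b1, Zfp42, Tfcp2l1 and Fbxo15. All but one encode transcription factors or cofactors; Fbxo15 encodes an F-box protein, a substrate adaptor of ubiquitin ligases. They were chosen by symbol from the annotation of the arrays, and 20 of the 34945 probe sets with a single gene name belong to them. Of these 20 probe sets, 17 passed the filter on dim signals, and each of the 10 genes kept at least 1. RNA came from embryoid bodies, the floating aggregates in which mouse embryonic stem cells differentiate. All groups were 1 stem cell line of strain 129P2, A2loxFMsgn1, which carries a Flag-tagged Msgn1 under control of doxycycline; Msgn1 is a basic helix-loop-helix factor of the presomitic mesoderm. After 2 days of differentiation the bodies were cultured further with 1 µg/ml doxycycline (induced) or without it (uninduced) for 12, 24 or 48 h, with 3 arrays in each of the 6 groups. The stem cells had been kept with LIF on mitomycin-treated fibroblast feeders, and LIF is not listed in the medium of the bodies. No array held cells that were given the drug but lacked the transgene, so an effect of doxycycline and one of Msgn1 cannot be told apart. No array held undifferentiated stem cells, so losses are measured from 12 h on.

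The naive state is that of the preimplantation epiblast and of mouse stem cells grown with LIF. In it, these factors bind each other's enhancers together with Pou5f1 and Sox2, and LIF acting through Stat3, together with active Wnt signalling, keeps several of them expressed. When stem cells leave this state, most of the network is shut down while Pou5f1 persists for longer. Nanog differs in that the embryo expresses it again in the posterior epiblast at gastrulation, and the Klf factors also serve in other cell types, Klf2 in endothelium and Klf4 and Klf5 in epithelia.

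Signal is on a linear scale, 1 value for each probe set and array. Each change given is a group mean of log2(signal + 32) minus that of the group it is set against, ± its standard error, and a probe set passed when its limma p, adjusted over all 26037 probe sets tested, was under 0.05. Beside each count of genes stands the percentage of all 14346 tested genes that had at least 1 probe set called in that direction. The labels call the 3 arrays of a group biological replicates without saying whether they were separate cultures. The p-values thus rest on the spread between arrays whose independence is not known. In bulk RNA, fewer cells of a type and less RNA per cell cannot be told apart. Where arrays of groups are said not to overlap, this only describes them. The share of all probe sets that separate so was not counted for any such statement. The Msgn1 probe set read 44.5 to 76.8 on the induced arrays and 4.69 to 25.2 on the uninduced ones, without overlap; the sources do not state whether it reads the transgene. Array medians lay between 18.8 and 22.1, and no array stood apart. The ratio of 3′ to 5′ signal, a sign of RNA integrity, was 1.56 to 1.80 on induced and 1.63 to 1.76 on uninduced arrays at 48 h for Actb, and 0.898 to 0.914 against 0.869 to 0.878 for Gapdh; the part of this Gapdh difference in the results at 48 h was not tested.

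Between 12 h and 48 h most of the naive genes were lost in both conditions, and Nanog rose. In induced bodies 8 of the 10 genes were lower at 48 h than at 12 h (20.3% of all genes), all but Klf4 and Nanog, and 1, Nanog, was higher (25.7%). In uninduced bodies 9 of the 10, Klf4 included, were lower at 48 h than at 12 h (16.3%) and 1, Nanog, was higher (20.9%). Klf4 was called there by its brighter probe set alone. Taking for each gene its probe set of highest mean, the median change over this time was -1.12 in induced and -1.23 in uninduced bodies, beside 0.018 and 0.0084 over all genes. Within the uninduced course, 3 genes, Nr0b1, Nr5a2 and Zfp42, were lower at 24 h than at 12 h (1.78%) and none was higher (2.13%), a number of calls that was 1 without uninduced 12 h replicate 1 and 1 without uninduced 12 h replicate 2. From 24 h to 48 h 7 were lower (12.6%), all but Klf4, Tfcp2l1 and Nanog, and 1, Nanog, was higher (14.6%).

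**Figure D1:**
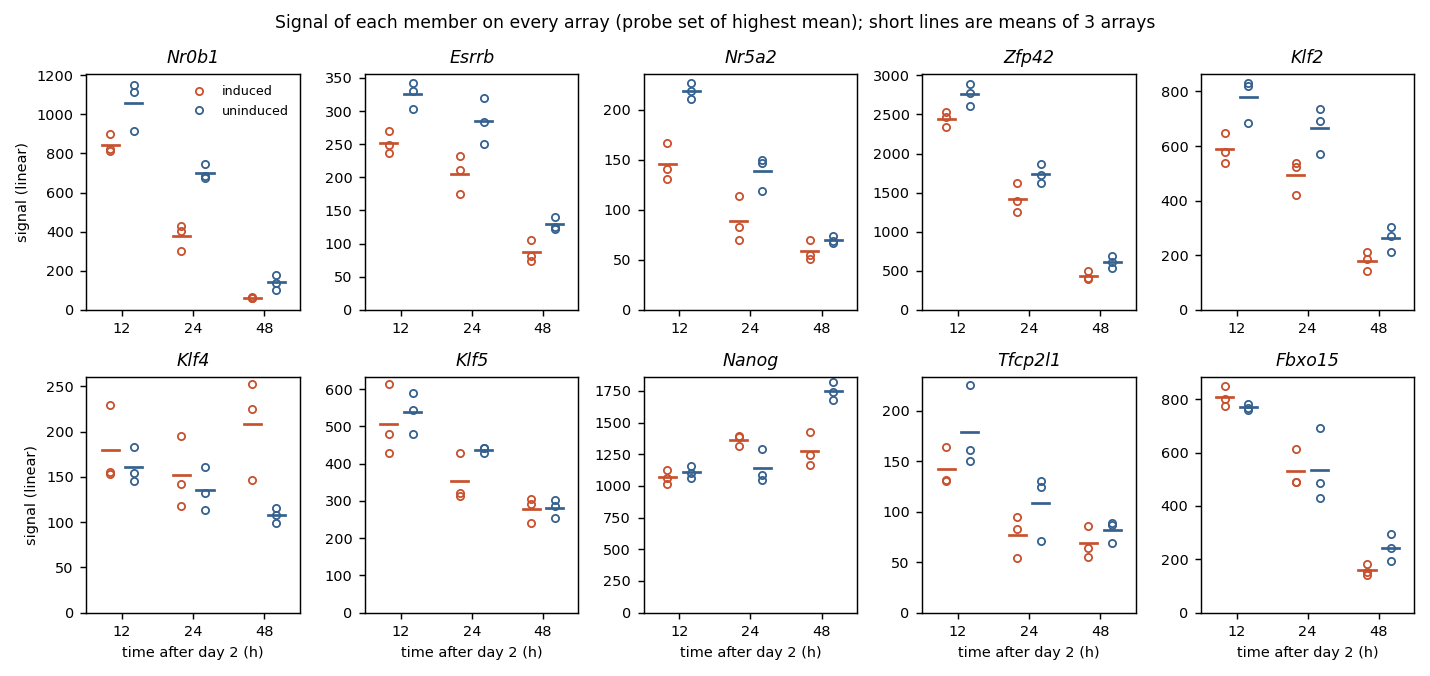
Signal of the 10 naive state genes on each of the 18 arrays (linear scale from 0; probe set of highest mean), by hours after day 2, with induced arrays in red left of uninduced arrays in blue and a short line at the mean of 3 arrays. Nr0b1 and Zfp42 fall in both conditions with induced below uninduced means at each time, Nanog is highest in uninduced bodies at 48 h, and Klf4 is highest in induced bodies at 48 h.

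Set against uninduced bodies of the same time, induced bodies had several of these genes lower, most of them called at 48 h, and Klf4 higher. At 12 h none of the 10 genes passed, where 0.160% of all genes were lower and 0.836% higher. Of their 17 probe sets, 7 had an unadjusted limma p under 0.05, beside 9.83% of all probe sets. They belonged to Klf2, Nr0b1, Nr5a2 and Esrrb, the last 2 with several each. Esrrb probe set 1441921_x_at was higher on induction and the others were lower. At 24 h 3 were lower, Nr0b1, Nr5a2 and Esrrb (0.802%), and none was higher (2.68%). At 48 h 6 were lower, Nr0b1, Zfp42, Nanog, Esrrb, Klf2 and Fbxo15 (5.70%), and 1, Klf4, was higher (6.96%). The median change of the 10 probe sets of highest mean was -0.22, -0.32 and -0.45 at 12, 24 and 48 h, beside 0.0026, 0.0053 and 0.0079 over all genes. The number called at 24 h was 1 without uninduced 24 h replicate 2 and 1 without induced 24 h replicate 2, and that at 48 h was 4 without uninduced 48 h replicate 3. The comparisons at a given time and the courses share arrays, so they are not independent of each other.

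**Figure D2:**
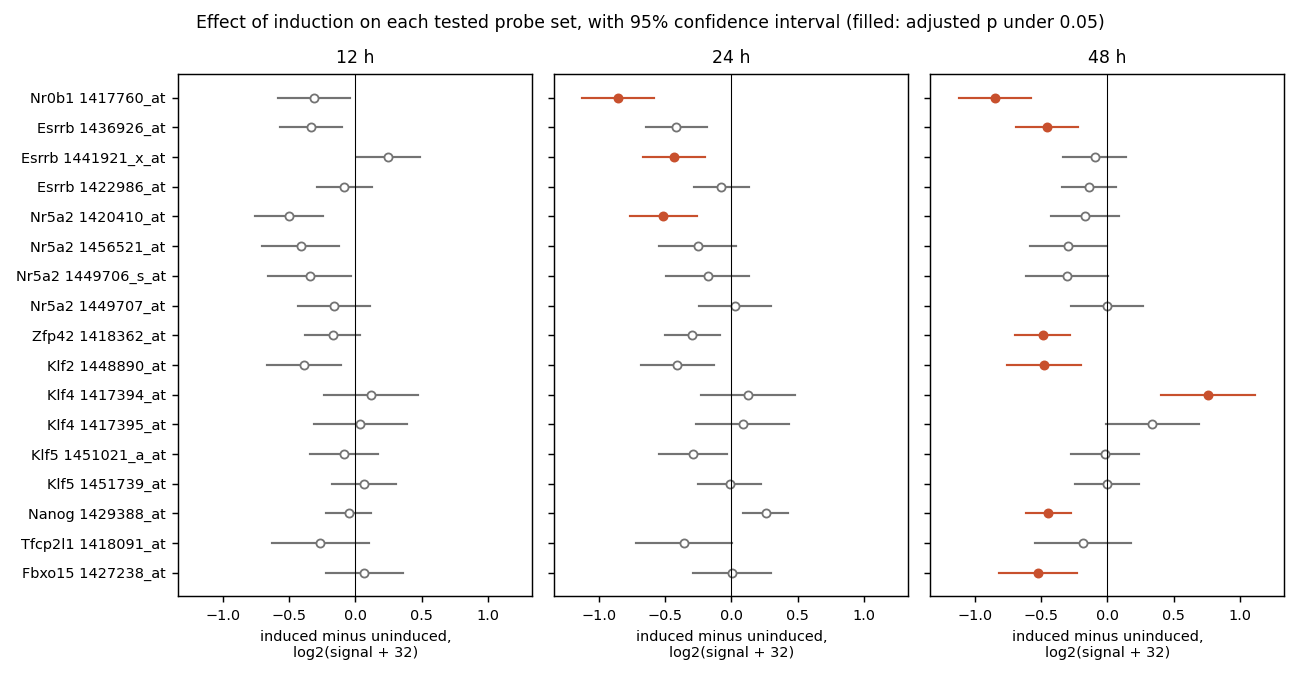
Induced minus uninduced difference of log2(signal + 32) for the 17 tested probe sets at 12, 24 and 48 h, with the 95% confidence interval of the fit; filled red symbols passed at an adjusted p under 0.05. No symbol is filled at 12 h, 3 are filled below 0 at 24 h, and at 48 h 6 are filled below 0 and 1, Klf4, above it.

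The stretch around the transcription start is shown for the pair of genes with the largest losses, Zfp42 and Nr0b1, for Nanog, which was higher at 48 h than at 12 h, and for Klf4, the one that was higher on induction. The windows are from RefSeq (build GRCm38.p6) and run from 250 bases before to 50 bases from the annotated start, on the strand of the gene. Capitals mark CACCC, which the Klf family recognises, and ATTTGCAT, the octamer of POU factors such as Pou5f1, on either strand.
Zfp42, chr8:43306960-43307259, minus strand: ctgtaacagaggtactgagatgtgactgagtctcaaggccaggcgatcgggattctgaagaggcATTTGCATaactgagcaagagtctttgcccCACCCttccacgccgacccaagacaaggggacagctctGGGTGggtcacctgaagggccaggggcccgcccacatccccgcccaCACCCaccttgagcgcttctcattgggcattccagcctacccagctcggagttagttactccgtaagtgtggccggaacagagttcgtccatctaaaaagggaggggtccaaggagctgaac
Nr0b1, chrX:86191525-86191824, plus strand: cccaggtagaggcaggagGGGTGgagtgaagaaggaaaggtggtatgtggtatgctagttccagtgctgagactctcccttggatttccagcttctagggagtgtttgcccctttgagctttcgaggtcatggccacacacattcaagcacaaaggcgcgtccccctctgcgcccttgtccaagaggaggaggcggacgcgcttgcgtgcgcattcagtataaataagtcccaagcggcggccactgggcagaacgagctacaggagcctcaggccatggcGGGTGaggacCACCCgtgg
Nanog, chr6:122707239-122707538, plus strand: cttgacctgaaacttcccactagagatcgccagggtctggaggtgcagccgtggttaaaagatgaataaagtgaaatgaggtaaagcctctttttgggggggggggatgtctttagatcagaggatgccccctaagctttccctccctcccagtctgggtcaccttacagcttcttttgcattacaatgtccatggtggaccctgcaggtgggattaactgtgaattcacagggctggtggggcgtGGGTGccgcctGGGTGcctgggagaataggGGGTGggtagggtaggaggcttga
Klf4, chr4:55532426-55532725, minus strand: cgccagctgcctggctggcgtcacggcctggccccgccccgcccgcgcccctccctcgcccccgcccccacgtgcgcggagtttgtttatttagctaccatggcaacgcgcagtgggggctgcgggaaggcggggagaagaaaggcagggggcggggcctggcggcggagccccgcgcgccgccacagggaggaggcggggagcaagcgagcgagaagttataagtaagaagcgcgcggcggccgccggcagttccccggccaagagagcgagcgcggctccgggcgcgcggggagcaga
RefSeq windows were matched for 8 of the 10 genes, 11 windows in all with 2 each for Nanog, whose first is shown, Esrrb and Nr5a2. The Zfp42, Nr0b1 and Nanog windows printed hold 3 CACCC matches each and the Klf4 window none. CACCC was in 9 of the 11 windows, beside 57.5% of all 32851 windows of that length. The octamer was in 1, that of Zfp42, beside 1.74% of all windows; there it overlaps an E-box match (CANNTG, the core bound by basic helix-loop-helix factors) at position -187. E-boxes, not marked above, were in 9 of the 11 windows, beside 72.3% of all. The letters TCAAGGTCA (Esrrb and Nr5a2) and TTCCNGGAA (STAT factors) were in none of them, beside 0.423% and 1.15% of all. The 2 Nanog windows overlap and hold the same CACCC and E-box matches. Counted by gene, CACCC was in 7 of the 8 and an E-box in 6. These matches describe the letters and are not binding sites measured here.

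Nr0b1, the gene with the largest loss of the 10 (probe set 1417760_at), encodes Dax1, an orphan nuclear receptor that lacks the usual DNA-binding domain and acts as a cofactor. It read 812, 899 and 822 in induced bodies, against 1113, 1152 and 913 in uninduced bodies, at 12 h. Nr0b1 read 404, 301 and 429 in induced bodies, against 748, 672 and 686 in uninduced bodies, at 24 h. Nr0b1 read 64.1, 59.0 and 62.7 in induced bodies, against 138, 103 and 178 in uninduced bodies, at 48 h. Its arrays separated completely: ordered by mean, the groups ran uninduced 12 h, induced 12 h, uninduced 24 h, induced 24 h, uninduced 48 h, induced 48 h, and no neighbours overlapped. The induced mean at 48 h was 7.33% of that at 12 h (-3.22 ± 0.131, limma adjusted p = 6.38e-14), and the uninduced one 13.2% (-2.68 ± 0.131, limma adjusted p = 2.74e-12). Between 12 h and 24 h the uninduced change was -0.57 ± 0.131, limma adjusted p = 0.0240, a call that ended without uninduced 12 h replicate 1 (0.0961), uninduced 12 h replicate 2 (0.119), uninduced 24 h replicate 1 (0.0563) or uninduced 24 h replicate 2 (0.0987), each left out alone with its adjusted p in parentheses. Most of the loss came later: between 24 h and 48 h the change was -2.12 ± 0.131, limma adjusted p = 2.75e-10. Induction took Nr0b1 lower still: induced signal was 79.7% of uninduced at 12 h (-0.31 ± 0.131, limma adjusted p = 0.419), 53.9% at 24 h (-0.85 ± 0.131, limma adjusted p = 4.73e-04) and 44.3% at 48 h (-0.85 ± 0.131, limma adjusted p = 1.16e-04). The effects at 24 h and 48 h passed whichever single array was left out.

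Esrrb, an orphan receptor that activates many genes of the naive network, has 3 probe sets, all tested. Its brightest, 1436926_at, read 271, 248 and 236 in induced bodies, against 302, 342 and 331 in uninduced bodies, at 12 h. Esrrb read 210.5, 175 and 232 in induced bodies, against 320.1, 284 and 250.2 in uninduced bodies, at 24 h. Esrrb read 105, 81.0 and 73.6 in induced bodies, against 122, 125 and 141 in uninduced bodies, at 48 h. Induced arrays lay below uninduced ones at every time, without overlap. In induced bodies 34.4% of the 12 h mean of Esrrb was left at 48 h (-1.27 ± 0.111, limma adjusted p = 1.00e-08). In uninduced bodies the signal at 24 h was 87.5% of that at 12 h (-0.18 ± 0.111, limma adjusted p = 0.462) and at 48 h 39.8% (-1.15 ± 0.111, limma adjusted p = 7.97e-08), with the call in the later interval (-0.97 ± 0.111, limma adjusted p = 1.79e-06). The effect of induction was -0.33 ± 0.111 at 12 h (limma adjusted p = 0.249), -0.41 ± 0.111 at 24 h (limma adjusted p = 0.0521), and -0.45 ± 0.111 at 48 h (limma adjusted p = 0.0102). With the replicate number as a block at 24 h the adjusted p there was 0.0371. That effect also passed without uninduced 24 h replicate 3 (0.0299), induced 24 h replicate 3 (0.0361) or induced 48 h replicate 1 (0.0325). It passed too under quantile normalization (0.0357), the 60th percentile filter (0.0402) and an offset of 64 (0.0436). Gene level (0.0362) and a robust variance trend (0.0491) also gave a pass. The remaining alternatives did not. The call at 48 h ended without uninduced 48 h replicate 3 (0.0588) or induced 48 h replicate 3 (0.0734).

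The other Esrrb probe sets did not give the same picture of induction. Probe set 1441921_x_at, whose suffix marks probes that may hybridise to further transcripts, read 272, 299 and 283 in induced bodies, against 247, 256 and 203 in uninduced bodies, at 12 h. This probe set read 181, 133 and 142 in induced bodies, against 187, 215 and 244 in uninduced bodies, at 24 h, and 96.3, 91.4 and 103 against 94.7, 101 and 122 at 48 h. Its induced arrays were thus the higher ones at 12 h, the lower ones at 24 h and mixed with the uninduced ones at 48 h. The effects were 0.25 ± 0.113 at 12 h (limma adjusted p = 0.469), -0.43 ± 0.113 at 24 h (0.0462) and -0.10 ± 0.113 at 48 h (0.716), and the difference between the 24 h and 12 h effects was -0.68 ± 0.160, limma adjusted p = 0.185. The 24 h call of this probe set ended without uninduced 12 h replicate 1 (0.0574), induced 12 h replicate 1 (0.0561), induced 12 h replicate 2 (0.0584), induced 12 h replicate 3 (0.0609), uninduced 24 h replicate 2 (0.108), uninduced 24 h replicate 3 (0.175), induced 24 h replicate 2 (0.232), induced 24 h replicate 3 (0.142), uninduced 48 h replicate 2 (0.0555), induced 48 h replicate 1 (0.0520), induced 48 h replicate 2 (0.0531) or induced 48 h replicate 3 (0.0563). It also ended without the filter (0.0706), without the variance trend (0.0579) or with the arrays of the comparison alone (0.207). The loss itself was shared: from 12 h to 48 h this probe set changed by -0.96 in uninduced bodies (limma adjusted p = 1.32e-06), beside -1.15 of the brightest. The dim probe set 1422986_at read 27.5 to 55.7 over all arrays, and its effects of induction lay between -0.14 and -0.076, none called. Its loss in induced bodies (-0.34 ± 0.0994, limma adjusted p = 0.0101) was not called without induced 12 h replicate 3 (0.0523). Its loss in uninduced bodies (-0.29 ± 0.0994, limma adjusted p = 0.0362) was not called without uninduced 12 h replicate 1 (0.114), uninduced 12 h replicate 2 (0.128), uninduced 48 h replicate 1 (0.0900) or uninduced 48 h replicate 2 (0.106), nor without the filter (0.0542) or with the arrays of the comparison alone (0.0788).

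Nr5a2, the receptor also called Lrh1, which can activate Pou5f1 in stem cells, has 4 probe sets, all tested. Its brightest probe set, 1420410_at, read 130.3, 140.3 and 166 in induced bodies, against 219, 227 and 210.3 in uninduced bodies, at 12 h. Nr5a2 read 69.5, 82.6 and 113 in induced bodies, against 119, 147 and 149.7 in uninduced bodies, at 24 h. Nr5a2 read 70.1, 50.9 and 54.6 in induced bodies, against 66.4, 68.8 and 73.2 in uninduced bodies, at 48 h. The conditions were apart at 12 h and 24 h and overlapped at 48 h, while induced arrays at 12 h overlapped uninduced ones at 24 h. The effect of induction was -0.50 ± 0.122 at 12 h (limma adjusted p = 0.0689), -0.51 ± 0.122 at 24 h (limma adjusted p = 0.0247), and -0.17 ± 0.122 at 48 h (limma adjusted p = 0.493). The 12 h value passed when the brightest probe set of each gene alone was tested (adjusted p = 0.0457) and without induced 24 h replicate 1 (0.0452) or induced 24 h replicate 3 (0.0286). The call at 24 h ended without uninduced 24 h replicate 2 (0.0948), uninduced 24 h replicate 3 (0.0955), induced 24 h replicate 1 (0.141) or induced 24 h replicate 2 (0.115), and with the arrays of the comparison alone (0.175). The 48 h effect minus the 12 h effect was 0.33 ± 0.173, limma adjusted p = 0.394, with a 95% interval of -0.029 to 0.69, so a shrinking effect was not shown. In induced bodies 40.2% of the 12 h mean was left at 48 h (-0.97 ± 0.122, limma adjusted p = 1.84e-06). The loss of Nr5a2 in uninduced bodies was spread over both intervals: uninduced signal at 24 h was 63.4% of that at 12 h (-0.56 ± 0.122, limma adjusted p = 0.0172), a call that ended without uninduced 12 h replicate 1 (0.0587), uninduced 12 h replicate 2 (0.0837) or uninduced 24 h replicate 1 (0.105), and at 48 h it was 31.8% (-1.30 ± 0.122, limma adjusted p = 4.74e-08; later interval -0.74 ± 0.122, limma adjusted p = 1.39e-04).

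Of the other Nr5a2 probe sets, 1456521_at had the same direction at each time, with effects of -0.41 ± 0.140, -0.25 ± 0.140 and -0.29 ± 0.140, and 1449706_s_at had -0.34 ± 0.149, -0.18 ± 0.149 and -0.30 ± 0.149. None of these passed (lowest limma adjusted p = 0.238). Both were lower at 48 h than at 12 h in uninduced bodies, with changes of -1.05 ± 0.140 (limma adjusted p = 5.75e-06) and -0.64 ± 0.149 (0.00273). The fourth, 1449707_at, never rose above a signal of 22.0 and gave no call in any comparison.

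Zfp42 encodes Rex1, a zinc finger factor used as a marker of the naive state, and its signal was lower in each later group of both conditions. Zfp42 (probe set 1418362_at) read 2342, 2531 and 2463 in induced bodies, against 2778, 2893 and 2611 in uninduced bodies, at 12 h. Zfp42 read 1392, 1255 and 1618 in induced bodies, against 1868, 1629 and 1729.7 in uninduced bodies, at 24 h. Zfp42 read 389, 494 and 406 in induced bodies, against 617, 537 and 692 in uninduced bodies, at 48 h. Its 6 groups did not overlap with their neighbours and stood in the same order as those of Nr0b1. Induced signal at 48 h was 17.6% of the induced 12 h mean (-2.43 ± 0.0982, limma adjusted p = 6.38e-14). Uninduced signal was 63.1% of the 12 h mean at 24 h (-0.66 ± 0.0982, limma adjusted p = 0.00142) and 22.3% at 48 h (-2.11 ± 0.0982, limma adjusted p = 1.46e-12), and the change in the later interval was -1.46 ± 0.0982, limma adjusted p = 8.56e-10. The effect of induction was -0.17 ± 0.0982 at 12 h (limma adjusted p = 0.607) and -0.29 ± 0.0982 at 24 h (limma adjusted p = 0.149), and neither passed. The arrays of the conditions did not overlap at these times. How many of all probe sets separate in this way was not counted. At 48 h the effect was -0.49 ± 0.0982, limma adjusted p = 0.00188, and it passed whichever array was left out.

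Klf2, Klf4 and Klf5 encode Krüppel-like factors with closely related DNA-binding domains. Klf2 (probe set 1448890_at) read 648, 576 and 539 in induced bodies, against 820.5, 684 and 829 in uninduced bodies, at 12 h. Klf2 read 524, 420.4 and 537 in induced bodies, against 734, 690.3 and 569.7 in uninduced bodies, at 24 h. Klf2 read 210.0, 141 and 186 in induced bodies, against 269, 213 and 304 in uninduced bodies, at 48 h. Induced arrays were the lower ones at all 3 times, without overlap. The effect was called at 48 h alone: -0.38 ± 0.133 at 12 h (limma adjusted p = 0.277), -0.41 ± 0.133 at 24 h (limma adjusted p = 0.136), and -0.48 ± 0.133 at 48 h (limma adjusted p = 0.0245). With a replicate block within each time the 24 h value passed (adjusted p = 0.0442). The 48 h call ended without uninduced 48 h replicate 1 (0.0857), uninduced 48 h replicate 3 (0.143) or induced 48 h replicate 2 (0.151), and with the arrays of the comparison alone (0.0562). In induced bodies 30.5% of the 12 h mean of Klf2 was left at 48 h (-1.56 ± 0.133, limma adjusted p = 6.00e-09). Its call in uninduced bodies came after 24 h: uninduced signal was 85.4% of the 12 h mean at 24 h (-0.22 ± 0.133, limma adjusted p = 0.446) and was 33.7% at 48 h, a change from 24 h of -1.25 ± 0.133, limma adjusted p = 6.33e-07. The difference between the courses of both conditions was -0.095 ± 0.188, limma adjusted p = 0.886, 95% interval -0.49 to 0.30.

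Klf4 was the gene of the 10 that was higher on induction. Its brighter probe set, 1417394_at, read 229.5, 153 and 155 in induced bodies, against 145, 155 and 182 in uninduced bodies, at 12 h. Klf4 read 142, 117 and 196 in induced bodies, against 132, 160.4 and 113 in uninduced bodies, at 24 h. Klf4 read 253, 146 and 224 in induced bodies, against 108, 98.9 and 115 in uninduced bodies, at 48 h. The conditions overlapped at 12 h and 24 h and separated at 48 h, where the induced arrays were spread widely, the lowest of them within the range of uninduced arrays at 12 h. Induced signal at 48 h was 194% of uninduced (0.76 ± 0.170, limma adjusted p = 0.00493), after 0.12 ± 0.170 at 12 h (limma adjusted p = 0.883) and 0.12 ± 0.170 at 24 h (limma adjusted p = 0.840). The 48 h call passed whichever array was left out. Induced signal at 48 h was 116% of its 12 h mean (0.17 ± 0.170, limma adjusted p = 0.469). Uninduced signal at 48 h was 66.7% of its 12 h mean (-0.47 ± 0.170, limma adjusted p = 0.0462), a call that ended without uninduced 12 h replicate 1 (0.0564), uninduced 12 h replicate 2 (0.0817), uninduced 12 h replicate 3 (0.160), uninduced 24 h replicate 1 (0.0531), induced 24 h replicate 1 (0.0512), uninduced 48 h replicate 1 (0.0911), uninduced 48 h replicate 2 (0.135), uninduced 48 h replicate 3 (0.0649) or induced 48 h replicate 3 (0.0519), and without the filter (0.0795), with an offset of 64 (0.0523) or without the variance trend (0.0606). The effect at 48 h minus that at 24 h was 0.63 ± 0.240, limma adjusted p = 0.254, and minus that at 12 h 0.64 ± 0.240, limma adjusted p = 0.182; the last passed without induced 48 h replicate 2 (0.0383). The dimmer probe set, 1417395_at, read 134, 81.2 and 77.2 in induced bodies, against 60.1, 69.2 and 76.8 in uninduced bodies, at 48 h, where a single induced array stood high and the other two came close to the uninduced range (0.34 ± 0.168, limma adjusted p = 0.264). The loss in uninduced bodies was not called for this probe set, whose mean at 48 h was 91.3% of that at 12 h.

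Markers of other cell types, some of which express Klf4 or Klf2 themselves, also differed at 48 h. They were counted by the probe set of highest mean of each gene, for which 6.20% of all genes were higher and 4.89% lower. Among endothelial markers 7 were higher and 0 lower of 11 tested, led by Kdr (2.39 ± 0.147), Fli1 (1.69 ± 0.138) and Etv2 (1.34 ± 0.118), which early mesoderm expresses too, and their summed signal was 1598 to 1757 on induced and 391 to 603 on uninduced arrays. Among feeder fibroblast markers 5 were higher and 0 lower of 12 tested (summed signal 971 to 1132 on induced against 692 to 858 on uninduced arrays), with Fbln5 under the filter. Among markers of surface and simple epithelium 1 was higher and 3 lower of 8 tested (summed signal 6553 to 6844 against 8754 to 9594), with Krt14 and Trp63 under the filter. Among trophoblast markers 2 were higher and 0 lower of 8 tested (summed signal 367 to 501 against 307 to 334), with Elf5 and Tpbpa under the filter. Among extraembryonic endoderm markers 4 were higher and 1 lower of 10 tested (summed signal 2797 to 3052 against 2103 to 2583), with Afp and Ttr under the filter. At 48 h induced bodies had Klf4 higher and Klf2 lower, with higher sums of the endothelial, fibroblast, trophoblast and extraembryonic endoderm lists. Their epithelium sum was lower. Median changes on induction at 48 h were 0.82 for the endothelial and 0.11 for the fibroblast list. They were 0.16 for the trophoblast, 0.14 for the extraembryonic endoderm and -0.28 for the epithelium list, beside 0.0079 over all genes. The endothelial sum was 549 to 638 on induced against 433 to 467 on uninduced arrays at 12 h. At 24 h it was 822 to 975 against 429 to 525. The fibroblast sum was 1160 to 1433 against 1047 to 1128 at 12 h, and 1153 to 1240 against 987 to 1123 at 24 h. Klf4 was not called at either of these times. The part of these cell types in the Klf4 result, or in those of the genes that were lower, was not tested.

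Klf5 showed a loss and no called effect of induction. Its brightest probe set, 1451021_a_at, read 614, 428 and 480.5 in induced bodies, against 543, 479 and 591 in uninduced bodies, at 12 h. Klf5 read 321, 313 and 429 in induced bodies, against 441, 429 and 441 in uninduced bodies, at 24 h. Klf5 read 239, 304 and 291 in induced bodies, against 287, 301 and 254 in uninduced bodies, at 48 h. The conditions overlapped at 12 h and 48 h and met at 24 h. The effect was -0.088 ± 0.123 at 12 h (limma adjusted p = 0.878), -0.29 ± 0.123 at 24 h (limma adjusted p = 0.297), and -0.016 ± 0.123 at 48 h (limma adjusted p = 0.969), and the 95% interval at 48 h was -0.27 to 0.24. Induced signal at 48 h was 54.8% of that at 12 h (-0.79 ± 0.123, limma adjusted p = 2.96e-05) and uninduced signal 52.2% (-0.86 ± 0.123, limma adjusted p = 1.55e-05). Probe set 1451739_at, between 23.6 and 47.8 on all arrays, changed by -0.31 ± 0.115 in induced bodies (limma adjusted p = 0.0433), against -0.24 ± 0.115 in uninduced ones (0.135). The call in induced bodies ended without induced 12 h replicate 1 (0.130), induced 12 h replicate 3 (0.0959), uninduced 48 h replicate 1 (0.0501), induced 48 h replicate 1 (0.130), induced 48 h replicate 2 (0.0818) or induced 48 h replicate 3 (0.0555), and without the filter (0.0655). The third Klf5 probe set, 1430255_at, stayed under the filter, with signals up to 15.0.

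Nanog, a homeobox factor at the centre of the pluripotency network, was higher at 48 h than at 12 h in both conditions. Nanog (probe set 1429388_at) read 1127, 1063 and 1013 in induced bodies, against 1059, 1157 and 1103 in uninduced bodies, at 12 h. Nanog read 1388, 1315 and 1394 in induced bodies, against 1046, 1083 and 1294 in uninduced bodies, at 24 h. Nanog read 1164, 1427 and 1241 in induced bodies, against 1821, 1741 and 1677 in uninduced bodies, at 48 h. The conditions overlapped at 12 h, the induced arrays were the higher ones at 24 h, and the uninduced arrays were the higher ones at 48 h, with uninduced 48 h above every other group. Induced signal was 128% of the 12 h mean at 24 h and 119.7% at 48 h (0.25 ± 0.0813, limma adjusted p = 0.0211), the last a call that ended without induced 12 h replicate 2 (0.0538), induced 12 h replicate 3 (0.0910) or induced 48 h replicate 2 (0.141). Uninduced signal was 103% of the 12 h mean at 24 h (0.038 ± 0.0813, limma adjusted p = 0.871) and 158% at 48 h (0.64 ± 0.0813, limma adjusted p = 3.09e-06). Ordered by mean below uninduced 48 h came induced 24 h, induced 48 h, uninduced 24 h, uninduced 12 h and induced 12 h, and each of these overlapped the next.

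The effect of induction on Nanog differed between times. It was -0.050 ± 0.0813 at 12 h (limma adjusted p = 0.897), 0.26 ± 0.0813 at 24 h (limma adjusted p = 0.115), and -0.45 ± 0.0813 at 48 h (limma adjusted p = 7.20e-04). The 24 h value passed without uninduced 24 h replicate 3 (0.0189), and the 48 h value passed whichever array was left out. The 48 h effect minus the 24 h effect was -0.70 ± 0.115, limma adjusted p = 0.00138, where 1.48% of all genes had such a difference below 0 and 1.42% above it, and it too passed whichever array was left out. The 24 h effect minus the 12 h effect was 0.31 ± 0.115, limma adjusted p = 0.597, and the 48 h effect minus the 12 h effect -0.40 ± 0.115, limma adjusted p = 0.0617; the last passed without uninduced 24 h replicate 3 (0.0252) or induced 48 h replicate 2 (0.0171). Markers of the streak and presomitic mesoderm had a summed signal of 1603 to 1650 on induced and 769 to 856 on uninduced arrays at 12 h. It was 2778 to 3559 against 1084 to 1467 at 24 h, and 7152 to 8965 against 6184 to 7515 at 48 h. Of these markers 7 were higher and 1 lower of 13 tested at 48 h. The list includes Msgn1, the gene placed under doxycycline, so these sums and counts are not independent of the design. Msgn1 read 44.5 to 56.3 on induced and 4.69 to 8.68 on uninduced arrays at 48 h. Among germ cell markers 0 were higher and 2 lower of 9 tested at 48 h (summed signal 703 to 789 against 841 to 961). Their part in the Nanog values was not tested.

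Tfcp2l1 and Fbxo15 completed the set. Tfcp2l1, a factor of the CP2 family that acts downstream of LIF, read 132, 164 and 131 in induced bodies, against 161, 225 and 150.2 in uninduced bodies, at 12 h (probe set 1418091_at). Tfcp2l1 read 94.3, 53.8 and 83.1 in induced bodies, against 131, 124 and 70.9 in uninduced bodies, at 24 h. Tfcp2l1 read 86.3, 63.6 and 55.5 in induced bodies, against 87.0, 68.7 and 88.7 in uninduced bodies, at 48 h. The conditions overlapped at each time. No effect of induction passed: -0.26 ± 0.175 at 12 h (limma adjusted p = 0.687), -0.36 ± 0.175 at 24 h (limma adjusted p = 0.400), and -0.18 ± 0.175 at 48 h (limma adjusted p = 0.634). From 12 h to 48 h Tfcp2l1 was lost in both conditions, with changes of -0.80 ± 0.175 in induced bodies (limma adjusted p = 9.93e-04; 48.1% left) and -0.88 ± 0.175 in uninduced ones (5.81e-04; 45.6% left). At 24 h its uninduced mean was 60.8% of that at 12 h (-0.60 ± 0.175, limma adjusted p = 0.0756). The other probe sets of Tfcp2l1, 1460714_at and 1460715_x_at, were under the filter, with no signal above 16.4.

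Fbxo15, a target of Pou5f1 and Sox2 in stem cells, read 777, 801 and 849 in induced bodies, against 767, 759 and 783 in uninduced bodies, at 12 h (probe set 1427238_at). Fbxo15 read 489, 488 and 612 in induced bodies, against 694, 486 and 428 in uninduced bodies, at 24 h. Fbxo15 read 182, 152 and 140.1 in induced bodies, against 241, 192 and 296 in uninduced bodies, at 48 h. The conditions overlapped at 12 h and 24 h, and the induced arrays were the lower ones at 48 h. The effect was 0.068 ± 0.141 at 12 h (limma adjusted p = 0.925), 0.0034 ± 0.141 at 24 h (limma adjusted p = 0.996), and -0.52 ± 0.141 at 48 h (limma adjusted p = 0.0198), and the last call ended without uninduced 48 h replicate 1 (0.0599), uninduced 48 h replicate 3 (0.137), induced 48 h replicate 2 (0.0607) or induced 48 h replicate 3 (0.0996). The 48 h effect minus that at 24 h was -0.53 ± 0.199, limma adjusted p = 0.251, and minus that at 12 h -0.59 ± 0.199, limma adjusted p = 0.124; the first passed without uninduced 24 h replicate 1 (0.0445) and the second without uninduced 48 h replicate 2 (0.0457). At 48 h 19.5% of the 12 h mean was left in induced bodies (-2.15 ± 0.141, limma adjusted p = 9.74e-11) and 31.6% in uninduced bodies (-1.56 ± 0.141, limma adjusted p = 2.79e-08). Uninduced signal at 24 h was 69.7% of that at 12 h (-0.52 ± 0.141, limma adjusted p = 0.0522). This change passed without uninduced 24 h replicate 1 (0.0118), induced 24 h replicate 3 (0.0402), uninduced 48 h replicate 2 (0.0417), uninduced 48 h replicate 3 (0.0392) or induced 48 h replicate 1 (0.0499). It passed too with the 60th percentile filter (0.0419), an offset of 64 (0.0456) or at gene level (0.0376). The remaining alternatives did not give a pass. 

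**Figure D3:**
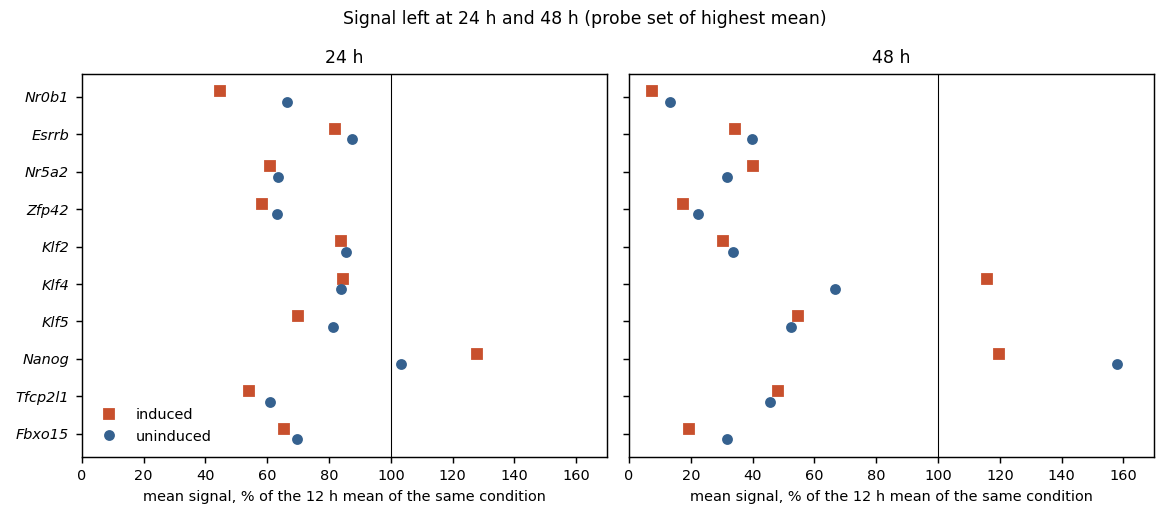
Mean signal of the 10 genes at 24 h and 48 h as a percentage of the 12 h mean of the same condition (probe set of highest mean; red squares induced, blue circles uninduced; the line marks 100%). At 48 h Nr0b1 stands at 7.33% in induced and 13.2% in uninduced bodies, while Nanog stands above 100% in both and Klf4 in induced bodies only.

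The change from 12 h to 48 h was compared between conditions by the 48 h effect minus the 12 h effect. None of the 10 genes passed in limma (6 of their 17 probe sets had an unadjusted p under 0.05, beside 14.6% of all probe sets), where 2.52% of all genes were below 0 and 2.74% above it. The lowest limma adjusted p was 0.0617, that of Nanog, followed by Fbxo15 (-0.59 ± 0.199; 0.124), Nr0b1 (-0.54 ± 0.186; 0.136) and Klf4 (0.64 ± 0.240; 0.182). The Nanog difference, of a gene whose signal was higher at 48 h than at 12 h in both conditions, passed under quantile normalization (adjusted p = 0.0467), a filter at percentile 60 (0.0476), gene level (0.0437), the arrays of the comparison alone (0.0400) and a replicate block (0.0460). The Nr0b1 difference passed without uninduced 48 h replicate 2 (0.0248). The 24 h effect minus the 12 h effect passed for none either (3 of 17 probe sets with an unadjusted p under 0.05, beside 6.78% of all), where 0.0209% and 0.0697% of all genes were below and above 0.

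Genes of the surrounding pathways, counted by the probe set of highest mean, set these values in context. Among other naive state genes 0 were higher and 11 lower of 13 tested from 12 h to 48 h in uninduced bodies (17.6% higher and 14.2% lower over all genes), with a median change of -0.98. Morc1, a germline chromatin gene, averaged 154 ± 31.1 at 48 h against 1135 ± 140.5 at 12 h (signal ± SD, n = 3), and Fgf4, the ligand that drives exit from the naive state, 147 ± 15.1 against 1011 ± 30.2. At 48 h, induced against uninduced, 1 was higher and 3 lower of 13 tested, with a median of -0.23. Tbx3, a T-box factor of the naive network that also serves in endoderm and mesoderm, was the higher one, at 504 ± 62.6 in induced against 86.3 ± 4.79 in uninduced bodies (2.18 ± 0.143, limma adjusted p = 1.11e-09). Manba, Morc1 and Fgf4 were lower, with changes of -0.41 ± 0.111, -0.39 ± 0.110 and -0.34 ± 0.0955.

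In LIF receptor and STAT3 signalling, which supports the naive state, 4 were higher and 0 lower of 14 tested on induction at 48 h: Myc (0.62 ± 0.132), Stat3 (0.50 ± 0.139), the coreceptor gene Il6st (0.43 ± 0.102) and the phosphatase gene Ptpn11 (0.23 ± 0.0646). The list's median was 0.21. Among general pluripotency factors, which the primed state also needs, 0 were higher and 5 lower of 10 tested on induction at 48 h, with a median of -0.29. Foxd3 (-1.47 ± 0.112), Utf1 (-1.18 ± 0.128) and Sox2 (-1.06 ± 0.0752) had the largest changes of that list. Pou5f1 averaged 3149 ± 254 in induced against 4118 ± 269.7 in uninduced bodies at 48 h (-0.38 ± 0.0639, limma adjusted p = 2.67e-04). Of this list 2 were higher and 6 lower of 10 tested from 12 h to 48 h in uninduced bodies, and Pou5f1 was not among them (-0.023 ± 0.0639, limma adjusted p = 0.842).

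Among formative and primed epiblast genes 7 were higher and 4 lower of 13 tested in the uninduced course, with a median of 0.31; Fst, Cdh2 and Wnt8a changed most, by 2.82 ± 0.159, 1.87 ± 0.115 and 1.52 ± 0.134. Of the same list 2 were higher and 7 lower of 13 tested on induction at 48 h, with a median of -0.59. Fgf5, the standard marker of the primed epiblast, averaged 629.8 ± 164 in induced and 1586 ± 59.4 in uninduced bodies at 48 h (-1.32 ± 0.138, limma adjusted p = 7.20e-07). Nanog and Fgf5 were both called higher at 48 h than at 12 h in uninduced bodies and lower on induction at 48 h. Other genes of this list went the other way, 4 in the uninduced course and 2 on induction. Among regulators of exit from the naive state 3 were higher and 4 lower of 13 tested in the uninduced course. On induction at 48 h 0 were higher and 2 lower of 13 tested, namely Tfe3 (-0.46 ± 0.0984), a factor that must leave the nucleus for exit, and Etv5 (-0.41 ± 0.103), an effector of FGF signalling. The genes of that list that did not pass at 48 h had values between -0.33 and 0.31.

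The patterns of the 10 genes were compared over the 18 arrays, which share 6 groups, by correlating each gene's log2 values with the mean of the other 9 after standardising. Pearson's r was 0.96 for Nr0b1, 0.96 for Zfp42, 0.95 for Esrrb, 0.94 for Klf2, 0.94 for Fbxo15, 0.91 for Nr5a2, 0.89 for Klf5 and 0.79 for Tfcp2l1. It was -0.73 for Nanog and near 0 for Klf4, so these 2 did not share the pattern of the other 8. Outside the set, the genes with the closest pattern to the mean of all 10, of 558 genes that varied between groups, were Fam25c, Morc1, Gtsf1l, Aass, Mymx and Smpdl3b, with r from 0.969 to 0.973. Aass, an enzyme gene of lysine breakdown, averaged 52.4 in induced and 97.6 in uninduced bodies at 48 h, against 360.4 and 445 at 12 h.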

How the data were processed

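The 18 arrays were single-channel Affymetrix 3′ expression arrays. The deposited values are signal intensity on a linear scale, made with GCOS per the submitters' processing notes (version, algorithm and target: not given in the sources used here). Each array had been scaled by the authors, since its 2% trimmed mean came to 150. Groups and replicate numbers came from the sample titles.

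Values were taken as log2(signal + 32), with no further normalization since array medians lay within 0.0922 of each other on that scale. Of 45101 probe sets, 64 controls, 932 with several genes and 9160 without a gene were left out. Symbols were updated through Entrez identifiers for 34741 of the remaining 34945. A probe set entered the tests when some group's mean signal was 13.3 or more, a limit set at percentile 40 of the values. Limma 3.58.1 (R 4.3.3) fitted 6 group means with 12 residual degrees of freedom and variances moderated with an intensity trend, and p-values were 2-sided and adjusted by Benjamini-Hochberg over probe sets for each of 10 contrasts. The fit was tested on simulated data. A gene counts as called when at least 1 of its probe sets passed.

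All 10 genes and each of their probe sets are named. In the pathway lists up to 3 called genes with the largest changes are named, and Pou5f1 and Ptpn11 were named after their values were seen. The members and lists were chosen with earlier results of these data known. The 6 genes of closest pattern had the highest correlation among genes with a standard deviation of group means of at least 0.5. Protein sequences were not used here. Deviations from the group mean of induced and uninduced arrays with the same replicate number correlated at 0.0121, 0.0741 and -0.0694 at 12 h, 0.197, 0.119 and 0.442 at 24 h and -0.0958, -0.0305 and 0.123 at 48 h. Since all 3 were over 0.1 at 24 h, the numbers were treated as pairing the arrays there. Values with that block stand beside the results they change. Unmatched arrays at 24 h correlated at 0.207 (induced 1 with uninduced 2) and 0.110 (induced 2 with uninduced 1). Unmatched pairs that held a replicate 3 lay between -0.332 and -0.188. These correlations thus set replicate 3 apart and do not show that numbers 1 and 2 pair. Figures were drawn with matplotlib 3.10.9.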

Additional observations from a re-analysis of the deposited data

Results flagged for a closer look

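The effect of induction on Nanog differed between 24 h and 48 h: the 48 h effect minus the 24 h effect was -0.70 ± 0.115 on the log2 scale (limma adjusted p = 0.00138). The 24 h effect itself did not pass (0.26 ± 0.0813, limma adjusted p = 0.115), and the 48 h effect did (-0.45 ± 0.0813, limma adjusted p = 7.20e-04). All 3 induced arrays lay above all 3 uninduced arrays at 24 h (1388, 1315 and 1394 against 1046, 1083 and 1294) and below them at 48 h (1164, 1427 and 1241 against 1821, 1741 and 1677). This was the only one of the 17 tested probe sets whose effect of induction differed between times at the threshold, over the 3 differences of times tested.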

How the results depend on the processing

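Of 52 calls of the naive genes' probe sets over the 10 comparisons, 40 passed under all alternatives that were run for them, and none reversed. Calls on induction were less stable. Those of Esrrb 1441921_x_at and Nr5a2 at 24 h and of Klf2, Esrrb 1436926_at and Fbxo15 at 48 h ended under some alternative. Those of Nr0b1 at both times and of Zfp42, Nanog and Klf4 at 48 h did not. The alternatives were quantile normalization, no filter, a filter at the 60th percentile, offsets of 16 and 64, gene level, no or a robust variance trend, the arrays of the comparison alone, replicate blocks and leaving out each array in turn. Leaving out 1 array, the number of genes called on induction was 0 to 1 at 12 h, 1 to 3 at 24 h and 4 to 7 at 48 h, beside 0, 3 and 7. For the uninduced courses it was 1 to 4 from 12 h to 24 h (beside 3), 8 to 9 from 24 h to 48 h (beside 8) and 9 to 10 over all (beside 10), and for the induced course 8 to 9 (beside 9). For the differences of effects it was 0 to 2 between 48 h and 12 h (beside 0), 1 to 2 between 48 h and 24 h (beside 1) and 0 to 0 between 24 h and 12 h (beside 0). At 12 h 1 gene, Nr5a2, was called with an offset of 64, at gene level, with the arrays of the comparison alone and with a replicate block. At 24 h 1 gene was called with the arrays of the comparison alone, where fewer arrays give the spread, and 4 with the replicate block within each time. The 48 h effect minus the 12 h effect was called for 2 genes, Nanog and Fbxo15, with the arrays of the comparison alone, and for 1, Nanog, under quantile normalization, the stricter filter, gene level and the replicate block. Where not named, the cause of these moves was not tested. The block changed no other call. The number of arrays limits the precision, and probe sets near the offset of 32 show changes smaller than those of their signal.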
